A study of Mus musculus with 12 samples.

Results

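The proteasome subunits described here are the genes of the deposited tables whose symbol starts with Psma, Psmb, Psmc, Psmd, Psme, Psmf or Psmg followed by a number, without the immunoproteasome genes Psmb8, Psmb9 and Psmb10 and the activator genes Psme1 and Psme2. Of 15002 genes listed, 49 carried such a symbol and 44 remained as members. By role these were 7 subunits of the alpha ring, 8 of the beta ring, 6 ATPases and 11 further subunits of the regulatory particle, 7 assembly chaperones, 3 activators or inhibitors, and 2 genes that matched by name only. The latter were Psmc3ip, whose product acts in meiotic recombination, and Psme2b, a copy of the excluded gene Psme2. Psmb11, the catalytic beta subunit of the thymus, was the only member that failed the filter on low counts, so 43 members were tested.

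RNA came from the mouse line IEC4.1, labelled as intestinal epithelium, with 3 libraries in each of 4 conditions. Cells received a control siRNA (siR_Ctrl, labelled SiNegative control) or a pool of 3 siRNAs at 40 nM each against the lncRNA Nostrill (siR_Nostrill, labelled SiNostril) for 24 h. Cells of each kind were left without IFN-γ or received IFN-γ at 1 ng/ml for 4 h according to a figure legend of the study, while the labels give 24 h for all libraries. All 4 groups had thus been transfected with siRNA, and all came from the same cell line. The tables list mRNAs, so Nostrill itself was not analysed here and did not serve to check the labels.

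Gene counts summed to 17824306 to 19093204 reads in a library. Epithelial markers were nearly absent. Of 12 listed, 7 were found, only Krt19 had a median of at least 1 FPKM, and their sum ranged from 1.3 to 3.2 FPKM. Vim, the intermediate filament gene of mesenchymal cells, had a median of 1679.24 FPKM, and 7 of 8 mesenchymal markers had a median of at least 1 FPKM. The sums of these 8 markers were 2203.2 to 2418.7 FPKM in siR_Ctrl, 2547.0 to 2656.5 in siR_Ctrl + IFN-γ, 2109.7 to 2317.2 in siR_Nostrill and 2247.1 to 2387.8 in siR_Nostrill + IFN-γ cells. The markers thus did not match the labelled cell type, and the line is called IEC4.1 here. The part of the marker levels in the results was not tested. As RNA was taken from whole cultures, fewer cells of a type and less RNA per cell cannot be told apart.

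The proteasome degrades proteins that carry ubiquitin chains. Its core particle is a barrel of outer alpha rings and inner beta rings, and the beta subunits encoded by Psmb5, Psmb6 and Psmb7 carry the cutting sites. The regulatory particle on the end of the barrel holds ATPases, which unfold the substrate, and further subunits that bind it and remove its ubiquitin. In cells exposed to IFN-γ, newly built core particles can take up the products of Psmb8, Psmb9 and Psmb10 in place of those of Psmb5, Psmb6 and Psmb7, respectively, and such immunoproteasomes favour peptides that fit MHC class I molecules.

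Sequences upstream of the genes are shown because IFN-γ induces IRF1, which binds interferon-stimulated response elements, whereas the NRF family, which controls proteasome genes, binds antioxidant response elements. The RefSeq promoter table (GRCm38.p6) held 37 of the 44 members and all 5 excluded genes. It did not hold Psmb1, Psmb2, Psmb7, Psmc3, Psmd3, Psmd7 and Psmg2. The 250 bases before each gene start were searched on both strands for TGACNNNGC (antioxidant response element), GAAA and, after any 2 bases, GAAA (core of the interferon-stimulated response element) and CCAAT. The 3 patterns do not contain one another. Capitals mark the match in each window of 30 bases, printed 5′ to 3′ on the strand of the gene.

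The antioxidant response element was matched in 5 of 37 members (13.5%), against 11.5% of the 27025 genes in the table, and in 0 of the 5 excluded genes. Among these are the catalytic pair Psmb5 (chr14:54618023-54618052, minus strand) and Psmb6 (chr11:70525327-70525356, plus strand), with the match starting 47 and 9 bases before the start. The Psmb6 window lies inside the gene as annotated from an earlier start. The others are Psmc6 (chr14:45329587-45329616, plus strand), Psmd12 (chr11:107479278-107479307, plus strand) and Psmd9 (chr5:123228149-123228178, plus strand).
Psmb5: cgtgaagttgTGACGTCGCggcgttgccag
Psmb6: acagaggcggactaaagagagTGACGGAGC
Psmc6: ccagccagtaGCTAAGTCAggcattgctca
Psmd12: tctGCTGTGTCAcatttgcccccctcagac
Psmd9: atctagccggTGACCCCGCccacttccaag

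The core of the interferon-stimulated response element was matched in 3 of 37 members (8.11%), against 3.46% of all genes, and in 0 of the 5 excluded genes. The members were Psmb3 (chr11:97703261-97703290, plus strand), Psmd4 (chr3:95042675-95042704, minus strand) and Psmd9 (chr5:123228021-123228050, plus strand). CCAAT was found in 14 of 37 members (37.8%) and in 37.5% of all genes. With counts this small, these shares describe the windows and no more.
Psmb3: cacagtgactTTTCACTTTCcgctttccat
Psmd4: ataaccaaccTTTCCATTTCtgtggcgcct
Psmd9: gggacagaatGAAAAAGAAAggaatgaaca

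The levels of the members were compared with one another and were not ranked against those of all genes. Levels are given as FPKM, which the authors had scaled for transcript length and mapped reads. Averaged over the 12 libraries, 42 of 44 members had at least 10 FPKM and 28 at least 100 FPKM. The beta ring held the highest levels, with a median of 372.0 FPKM over its 8 genes. Psmb4, a beta subunit without a cutting site, was the highest member at 631.6 FPKM. The alpha ring, which gates the entry to the barrel, had a median of 220.9 FPKM, from Psma1 at 138.9 to Psma7 at 343.0 FPKM. The members of a ring, which are built in equal numbers into each particle, thus differed in mRNA level by 2.47 times in the alpha ring and, without Psmb11, by 2.56 times in the beta ring.

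The regulatory particle was lower. Its 6 ATPases had a median of 174.5 FPKM, from Psmc4 at 96.6 to Psmc3 at 212.9 FPKM. The 11 non-ATPase subunits had a median of 115.7 FPKM, and here Psmd2, the large scaffold of the base, stood at 295.4 FPKM and Psmd11, a lid subunit, at 64.33 FPKM. Dedicated assembly factors that do not stay in the finished particle were lower again.

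The 7 assembly chaperones had a median of 44.05 FPKM, with Psmg4 highest at 82.56 and Psmd9 lowest at 22.39 FPKM. Among the activators and inhibitor, Psme3, the nuclear activator subunit, had 57.26 FPKM, Psme4 20.25 FPKM and Psmf1, an inhibitor, 12.47 FPKM. Of the genes that matched by name only, Psmc3ip had 28.22 FPKM and Psme2b 1.312 FPKM. Psmb11 ranged from 0 to 0.03 FPKM. For 42 of the 43 neighbouring pairs in this order the ranges over the 12 libraries overlapped. The exception was Psmf1 (10.94 to 14.38 FPKM) above Psme2b (0 to 5.55 FPKM). These ranges pool the 4 conditions and do not compare the genes of a pair within each library. Overlap thus does not show that neighbours had equal levels.

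**Figure D1:**
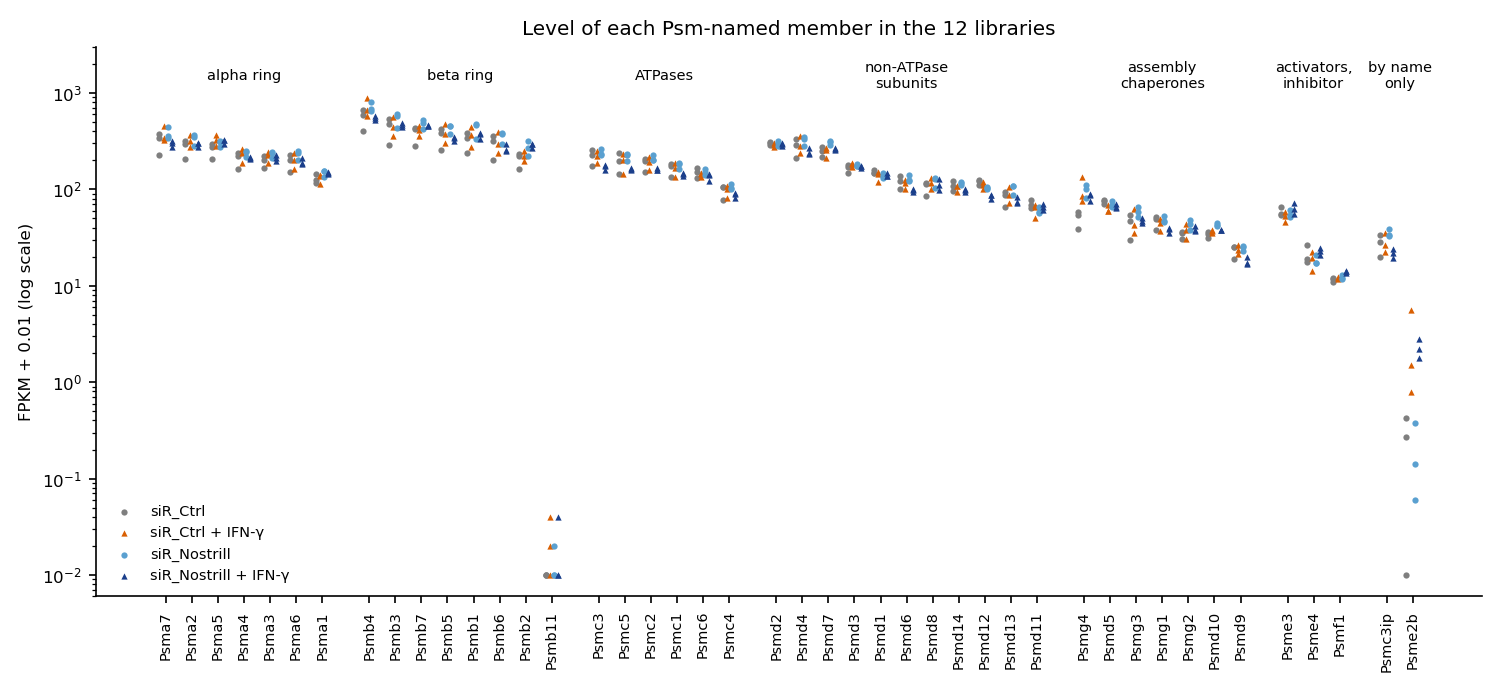
Level of each of the 44 members in each of the 12 libraries, as FPKM plus 0.01 on a log axis. Points are libraries, colours and shapes are the 4 conditions, and members are ordered by mean level within each role. Beta ring genes are highest (Psmb4, mean 631.6 FPKM), and Psmb11 (at most 0.03 FPKM) and Psme2b (mean 1.312 FPKM) stand far below the others.

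The catalytic subunits were read first. Psmb5 (chromosome 14, 54614120 to 54617995), which encodes the chymotrypsin-like site, had 254.29, 418.25 and 385.57 FPKM in siR_Ctrl cells and 379.7, 478.55 and 303.12 FPKM with IFN-γ. In siR_Nostrill cells it had 459.26, 457.25 and 375.09 FPKM, and 337.17, 315.55 and 347.69 FPKM with IFN-γ. The siR_Ctrl groups overlapped with and without IFN-γ, whereas in siR_Nostrill cells all 3 libraries with IFN-γ were below all 3 without.

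Psmb6 (chromosome 11, 70525324 to 70527858), which encodes the caspase-like site, had 201.88, 354.63 and 315.84 FPKM in siR_Ctrl and 295.68, 398.02 and 238.04 FPKM in siR_Ctrl + IFN-γ cells. It had 377.28, 387.63 and 298.76 FPKM in siR_Nostrill and 250.72, 257.19 and 295.97 FPKM in siR_Nostrill + IFN-γ cells. In both siR_Ctrl groups the libraries stood in the same order as for Psmb5, and in siR_Nostrill cells the libraries with IFN-γ were again below those without, though 295.97 and 298.76 FPKM almost met.

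Psmb7 (chromosome 2, 38588046 to 38643952), which encodes the trypsin-like site, had 280.4, 436.97 and 422.25 FPKM in siR_Ctrl and 410.58, 451.96 and 357.62 FPKM in siR_Ctrl + IFN-γ cells. It had 524.27, 482.59 and 427.61 FPKM in siR_Nostrill and 451.05, 456.91 and 465.87 FPKM in siR_Nostrill + IFN-γ cells. Groups with and without IFN-γ overlapped under both siRNAs.

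The question of the first comparison was what IFN-γ did in cells with control siRNA. In edgeR's quasi-likelihood test, with p-values adjusted after Benjamini and Hochberg over all genes, 1 of the 43 tested members was called at an adjusted p under 0.05, against 5.45% of all genes tested. At an unadjusted p under 0.05 there were 2, against 14.6% of all genes. None of the catalytic subunits was called. The log2 fold change was 0.20 for Psmb5 (95% interval -0.32 to 0.73, edgeR adjusted p = 0.760), 0.17 for Psmb6 (-0.42 to 0.76, adjusted p = 0.811) and 0.17 for Psmb7 (-0.30 to 0.64, adjusted p = 0.767). Each interval reached from a decrease to an increase.

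The called member was Psme2b, with 0.41, 0.26 and 0 FPKM in siR_Ctrl and 1.5, 0.78 and 5.55 FPKM in siR_Ctrl + IFN-γ cells. The fitted log2 fold change was 3.54 (SE 0.85, edgeR adjusted p = 0.033), from counts of 6, 4 and 0 in the siR_Ctrl libraries. With so few reads without IFN-γ, Psme2b passed the filter on low counts only through libraries with IFN-γ. Its call and fold thus belong to a gene let into the test by the change itself and are given as a description only. This also holds for its calls in the other fits and comparisons. The groups did not overlap, but the call was lost in 7 of 12 fits that each left out a library, namely without any of the 3 siR_Ctrl libraries, siR_Ctrl + IFN-γ replicate 3, siR_Nostrill replicate 2, or siR_Nostrill + IFN-γ replicate 1 or 2. Psme2b is a near copy of Psme2, and the counting could split reads between them, so its level is uncertain. Psme2 itself had 130.98, 203.85 and 222.85 FPKM in siR_Ctrl and 455.31, 615.04 and 387.37 FPKM in siR_Ctrl + IFN-γ cells.

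Next by p was Psmg4, a chaperone of alpha ring assembly, with 38.39, 54.5 and 57.94 FPKM in siR_Ctrl and 76.48, 133.97 and 84.66 FPKM in siR_Ctrl + IFN-γ cells. All 3 libraries with IFN-γ were above all 3 without. Psmg4 has the shortest transcript of the tested members, with an effective length of 298 nt, and fold changes ran with length as given further on. The log2 fold change was 1.05 (SE 0.28), and with an edgeR adjusted p of 0.055 it was not called, whereas DESeq2's Wald test called it. Psma5, of the alpha ring, followed at 0.38 (SE 0.18, edgeR adjusted p = 0.369). It had 205.63, 299.12 and 278.26 FPKM in siR_Ctrl and 324.91, 367.44 and 281.14 FPKM in siR_Ctrl + IFN-γ cells, so the groups overlapped.

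Of the 43 members 33 had a positive log2 fold change (76.7%, against 48.4% of all genes), and their median was 0.13, against -0.0085 over all genes. Medians by role were 0.22 for the alpha ring, 0.17 for the beta ring, 0.072 for the ATPases, 0.0098 for the non-ATPase subunits, 0.18 for the chaperones and -0.085 for the activators and inhibitor. The sign rested on single libraries. Without siR_Ctrl replicate 1 the members' median was -0.040, and without siR_Ctrl + IFN-γ replicate 2 it was -0.031, whereas it was 0.285 without siR_Ctrl replicate 2 and 0.266 without siR_Ctrl + IFN-γ replicate 3. After removal of the length trend, as described further on, 24 of 43 were positive (55.8%).

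In siR_Nostrill cells most members had negative log2 fold changes with IFN-γ, and the edgeR fit to all libraries again called only Psme2b. Of 43 members 1 was thus called (against 6.78% of all genes), and 9 had an unadjusted p under 0.05, 2 higher and 7 lower (against 21.9% of all genes in either direction). DESeq2 called 2, Psme2b and, as lower, Psmc3ip (against 10.5%). With only the groups compared, edgeR called 15 (against 17.0%), all lower except Psme4 and Psme2b. The median was -0.23, and 7 of 43 members were positive (16.3%, against 49.9% of all genes), or 18 of 43 (41.9%) with the length trend removed. Without a library the median lay between -0.337 and -0.16. Psmb5 had -0.40 (95% interval -0.92 to 0.13, edgeR adjusted p = 0.338), Psmb6 -0.44 (-1.02 to 0.15, adjusted p = 0.343) and Psmb7 -0.15 (-0.62 to 0.32, adjusted p = 0.680). All 6 ATPases and all 7 chaperones had negative values, with medians of -0.37 and -0.22, while Psme3, Psme4 and Psmf1 had values from 0.16 to 0.31. With the length trend removed 6 of 6 ATPases and 5 of 7 chaperones were negative, with medians of -0.195 and -0.017, and the last 3 genes were again positive.

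Psme2b had 0.37, 0.13 and 0.05 FPKM in siR_Nostrill and 2.76, 2.18 and 1.75 FPKM in siR_Nostrill + IFN-γ cells. These groups did not overlap, and the log2 fold change was 3.43 (SE 0.89, edgeR adjusted p = 0.041). Here too the gene was in the test only through libraries with IFN-γ, so its call and fold are given as a description only. The call was lost in 8 of 12 fits without a library, among them each that left out a siR_Nostrill or siR_Nostrill + IFN-γ library, siR_Ctrl replicate 2 or siR_Ctrl + IFN-γ replicate 1.

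Psmd9, a chaperone of the ATPase ring, had 24.98, 25.9 and 23.16 FPKM in siR_Nostrill and 17.07, 16.88 and 20.07 FPKM in siR_Nostrill + IFN-γ cells, a log2 fold change of -0.48 (SE 0.16, edgeR adjusted p = 0.113). Psmc3ip had 33.1, 39.25 and 33.62 FPKM against 19.62, 24.32 and 22.02 FPKM, a log2 fold change of -0.70 (SE 0.24, adjusted p = 0.115). For both genes the groups did not overlap, and neither passed this edgeR test. DESeq2, and edgeR with a block for the replicate number, called Psmc3ip as lower. Psmd9 was called as lower by limma on log2(FPKM + 1) and on log2(FPKM + 0.1). With only the groups compared, edgeR called both.

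**Figure D2:**
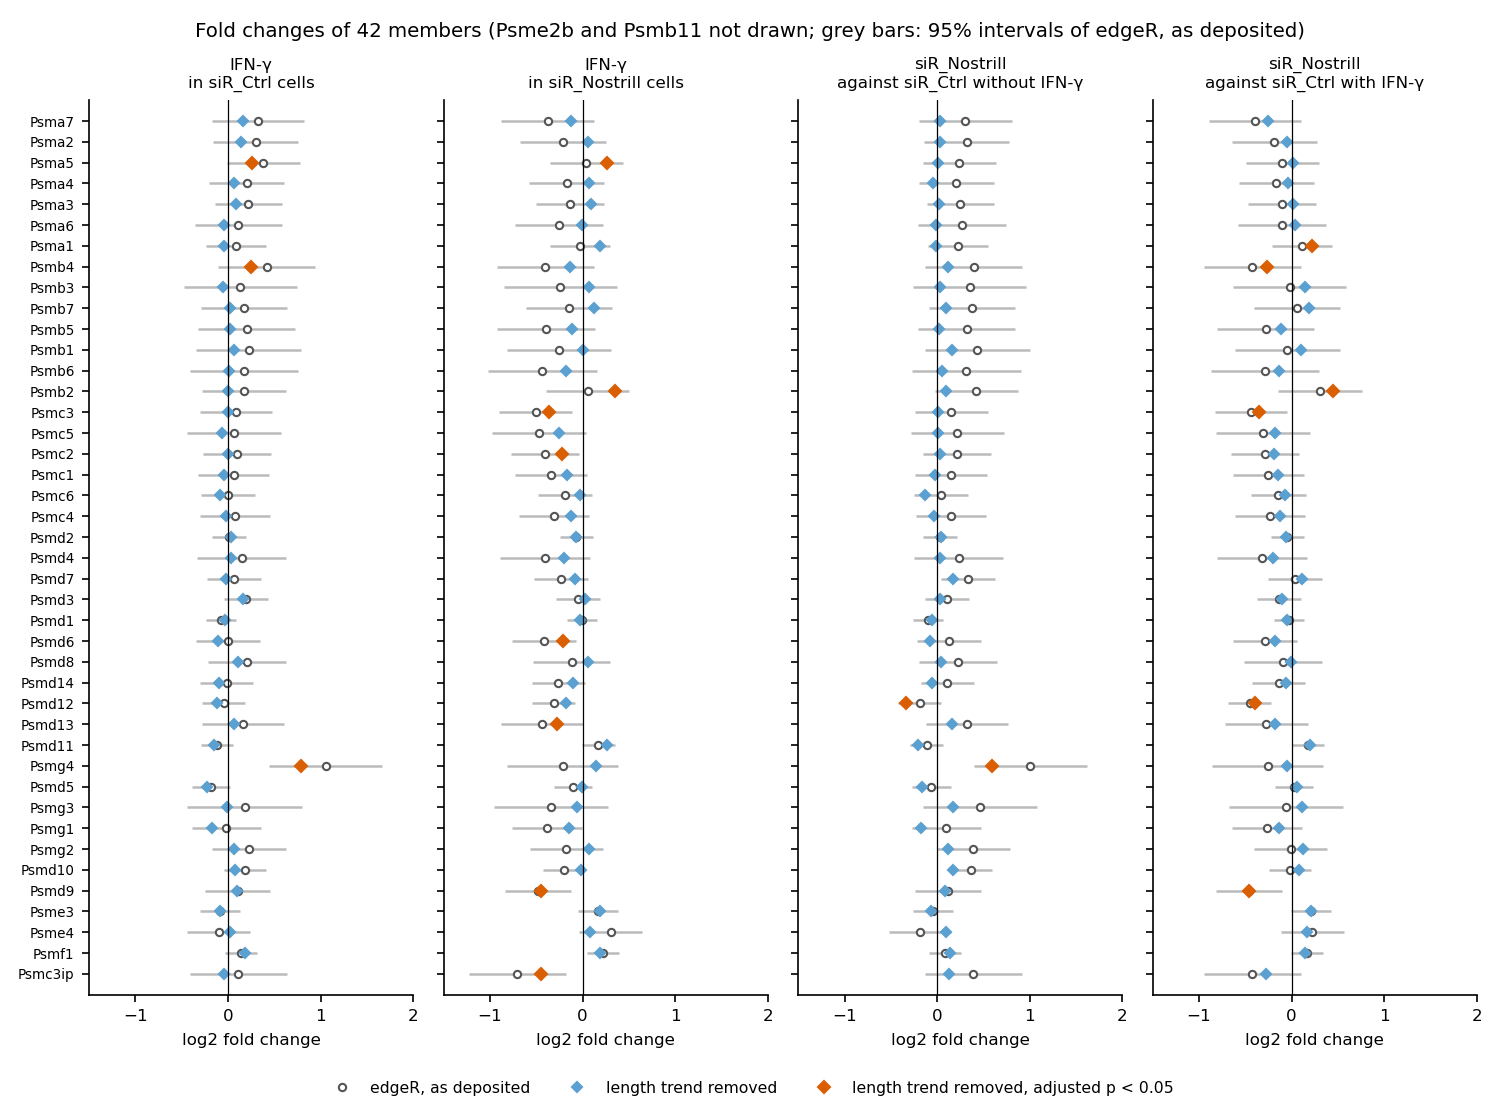
Log2 fold changes of 42 members in 4 comparisons, ordered by role. Open circles with grey 95% intervals are edgeR on the deposited counts, diamonds are edgeR with the length trend removed, and orange diamonds had an adjusted p under 0.05. Open circles lie mostly to the right for IFN-γ in siR_Ctrl cells and for siR_Nostrill without IFN-γ (medians 0.13 and 0.22) and mostly to the left for IFN-γ in siR_Nostrill cells and for siR_Nostrill with IFN-γ (-0.23 and -0.14), and the medians of the diamonds are closer to 0 (0.014, 0.030, -0.028 and -0.055, respectively).

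Without IFN-γ, siR_Nostrill was compared with siR_Ctrl to see whether the knockdown alone moved the subunits. No member was called by edgeR (against 0.218% of all genes), 3 had an unadjusted p under 0.05 (against 13.8%), and DESeq2 called 2, Psmd10 and Psmg4 (against 2.35%). The median was 0.22, and 36 of 43 members were positive (83.7%, against 50.6% of all genes). The median was 0.070 without siR_Ctrl replicate 1 and 0.36 without siR_Ctrl replicate 2, and with the length trend removed 28 of 43 were positive (65.1%). All 7 tested beta ring genes were positive, with a median of 0.38, which was 0.093 with the length trend removed and again 7 of 7 positive. Psmb5 had 0.32 (95% interval -0.21 to 0.85), Psmb6 0.32 (-0.27 to 0.90) and Psmb7 0.38 (-0.090 to 0.84), with edgeR adjusted p values of 0.464, 0.498 and 0.397.

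Psmg4 had 100.37, 111.4 and 81.2 FPKM in siR_Nostrill cells, all above the 38.39 to 57.94 FPKM of siR_Ctrl cells, a log2 fold change of 1.01 (SE 0.28, edgeR adjusted p = 0.195). Psmd10, the chaperone also known as gankyrin, had 41.68, 44.94 and 42.25 FPKM in siR_Nostrill and 31.05, 34.36 and 36.37 FPKM in siR_Ctrl cells (0.37, SE 0.10, adjusted p = 0.212). Psmd7, a lid subunit, had 287.54, 316.6 and 312.26 FPKM against 215.14, 273.29 and 252.36 FPKM (0.33, adjusted p = 0.329). The groups did not overlap for any of these 3 genes.

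With IFN-γ in both arms, siR_Nostrill was again compared with siR_Ctrl. This comparison and the IFN-γ comparisons share control libraries, so their values are given side by side. No member was called by edgeR (against 0.429% of all genes), 4 had an unadjusted p under 0.05 (against 14.5%), and DESeq2 called 1, Psmd12 (against 5.65%). The median was -0.14, with 9 of 43 members positive (20.9%, against 49.4% of all genes), and it was -0.0096 without siR_Ctrl + IFN-γ replicate 2 and -0.243 without siR_Ctrl + IFN-γ replicate 3. Removing the length trend left 17 of 43 positive (39.5%). Log2 fold changes were -0.28 for Psmb5 (95% interval -0.80 to 0.25), -0.29 for Psmb6 (-0.88 to 0.30) and 0.058 for Psmb7 (-0.41 to 0.52), with edgeR adjusted p values of 0.645, 0.673 and 0.929.

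Psmd12, a lid subunit, had 78.57, 86.57 and 86.79 FPKM in siR_Nostrill + IFN-γ cells and 119.57, 111.35 and 99.8 FPKM in siR_Ctrl + IFN-γ cells, with no overlap. The log2 fold change was -0.45 (SE 0.11, edgeR adjusted p = 0.085). Without IFN-γ it had 102.4, 101.38 and 104.63 FPKM in siR_Nostrill and 110.62, 124.03 and 123.57 FPKM in siR_Ctrl cells. All 3 siR_Nostrill libraries were thus below all 3 siR_Ctrl libraries with and without IFN-γ.

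Psmd9 had 23.56, 26.41 and 21.12 FPKM in siR_Ctrl + IFN-γ cells, above all siR_Nostrill + IFN-γ libraries (-0.46, SE 0.16, edgeR adjusted p = 0.203). Psmc3, an ATPase, had 158.87, 175.39 and 179.45 FPKM in siR_Nostrill + IFN-γ and 223.81, 252.49 and 188.58 FPKM in siR_Ctrl + IFN-γ cells (-0.44, SE 0.18, adjusted p = 0.287). Neither was called.

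The interaction asked whether the IFN-γ change differed between the siRNAs. No member and no gene at all was called (0.0% by edgeR, 0.0% by DESeq2 and 0.0% with the length trend removed as below), and 7 members had an unadjusted p under 0.05 (against 10.7% of all genes). The members' median was -0.37, with 6 of 43 positive, against 50.6% of all genes, or 18 of 43 with the length trend removed. Without a library the median lay between -0.529 and -0.218, the latter without siR_Ctrl + IFN-γ replicate 2, and it was -0.222 without siR_Ctrl replicate 1. For Psmb5, Psmb6 and Psmb7 it was -0.60 (95% interval -1.34 to 0.14), -0.61 (-1.44 to 0.22) and -0.32 (-0.98 to 0.34). The lowest p values were those of Psmg4 (-1.27), Psmd10 (-0.38) and Psmd11 (0.29), each with an edgeR adjusted p of 0.430.

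The spread between replicates was large for the members and ran with transcript length. Their median effective length, the length over which a read can start, was 1101 nt (quartiles 777 and 1381), against 2681 nt (1634 and 4150) for the other genes. In siR_Ctrl the mean transcript length weighted by level was 1.751, 1.36 and 1.444 kb in replicates 1 to 3, and the share of reads on members was 0.671%, 0.903% and 0.84%. In siR_Ctrl + IFN-γ the lengths were 1.437, 1.258 and 1.575 kb and the shares 0.842%, 0.931% and 0.731%. Libraries with more reads on long transcripts had fewer reads on proteasome subunits.

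For siR_Nostrill the lengths were 1.329, 1.275 and 1.468 kb and the shares 0.94%, 0.939% and 0.84%, and for siR_Nostrill + IFN-γ they were 1.545, 1.514 and 1.432 kb and 0.78%, 0.788% and 0.826%. Group means of the length were 1.518 ± 0.206, 1.423 ± 0.159, 1.357 ± 0.0996 and 1.497 ± 0.0584 kb (SD, n = 3), in the order siR_Ctrl, siR_Ctrl + IFN-γ, siR_Nostrill, siR_Nostrill + IFN-γ. The order of these means was the reverse of that of the members' summed FPKM, which was 7302 ± 1329, 7859 ± 1188, 8566 ± 705 and 7370 ± 249. The summed TPM, which is scaled to a fixed total, varied less, at 10905 ± 638, 11061 ± 478, 11577 ± 163 and 11024 ± 84.1. The part of length in the group differences of the members was not tested apart from the fits below.

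A length index was computed in each library from the other genes alone, as the median deviation of log2 CPM from the group mean over genes longer than the upper quartile minus that over genes shorter than the lower quartile. Across the 12 libraries the members' median deviation followed it with Pearson's r = -0.992 and Spearman's rho = -0.972. The index itself contains other genes as short as most members, so this describes the libraries, is not particular to the members and is given with no p. Without siR_Ctrl replicate 1 and siR_Ctrl + IFN-γ replicate 3, the libraries farthest from the median index, r was -0.986. Psmb11, which failed the filter on low counts, was not part of this.

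**Figure D3:**
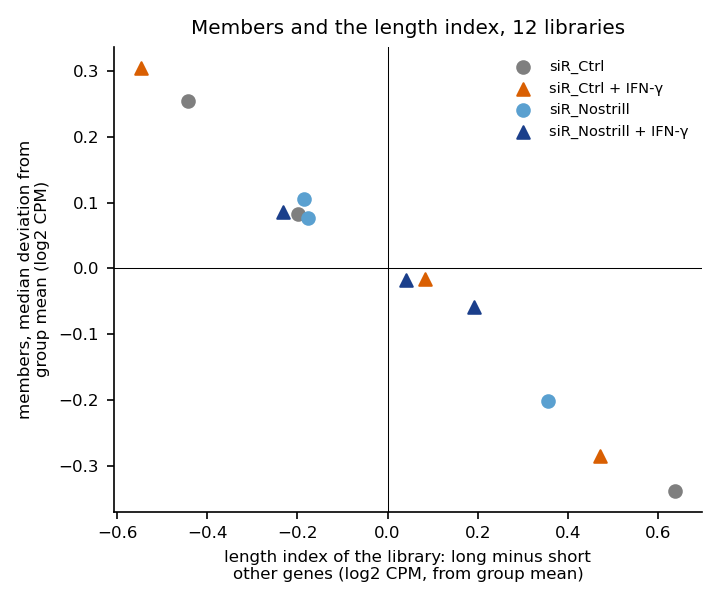
Members' median deviation from the group mean (log2 CPM, vertical axis) against the length index of the library, computed on the other genes (log2 CPM, horizontal axis). Each of the 12 points is a library, coloured by condition, and they fall along a line from siR_Ctrl + IFN-γ replicate 2 (-0.548, 0.304) to siR_Ctrl replicate 1 (0.638, -0.337).

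Most members moved together between libraries. Over the 12 libraries the deviations of a member correlated with the median of the other members with a median r of 0.956, and 35 of 43 members had an r of at least 0.8. These points share the libraries and their length index. Of the others, 5 had an r below 0. These were Psme4, the activator with the longest transcript among the tested members (6152 nt, r = -0.978), Psmd11 (1849 nt, -0.702), Psme2b (830 nt, -0.508), Psme3 (2429 nt, -0.494) and Psmd1 (3020 nt, -0.358). Of similar length to these, Psmd9 (2356 nt) had 0.956 and Psmf1 (3104 nt) 0.784. Psmd2, at 2725 nt near the median length of the other genes, ranged from 275.87 to 315.87 FPKM over all 12 libraries, the narrowest FPKM range of the members relative to level, while its TPM varied by 1.46 times.

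With the dependence of each library on length removed by a smooth curve, the members' SD between replicates fell from a median of 0.245 to 0.0832 on the log2 scale. For the other genes it went from 0.193 to 0.119. The median r between a member and the others was then 0.505, and 4 of 43 members had an r of at least 0.8. The curve also removes any difference between conditions that runs with length, so a change shared by short transcripts and a length bias of the libraries cannot be told apart.

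The fold changes ran with length as well. Spearman's rho of log2 fold change and effective length over the 43 members was -0.636 for IFN-γ in siR_Ctrl cells, 0.265 in siR_Nostrill cells, -0.765 for siR_Nostrill without IFN-γ, 0.169 with IFN-γ and 0.560 for the interaction. Among the other genes it was -0.419, 0.478, -0.652, 0.260 and 0.645, of the same sign in each comparison. When the other genes were put in 10 bins of length, the shortest bins (medians 693 and 1232 nt) had median log2 fold changes of 0.178 and 0.0981, -0.295 and -0.186, 0.313 and 0.191, -0.15 and -0.0946, and -0.465 and -0.294 in these comparisons. The members' medians of 0.13, -0.23, 0.22, -0.14 and -0.37 lay between them each time. Psmg4 lies at the short end of this axis, and 0.933% of the tested genes were shorter.

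**Figure D4:**
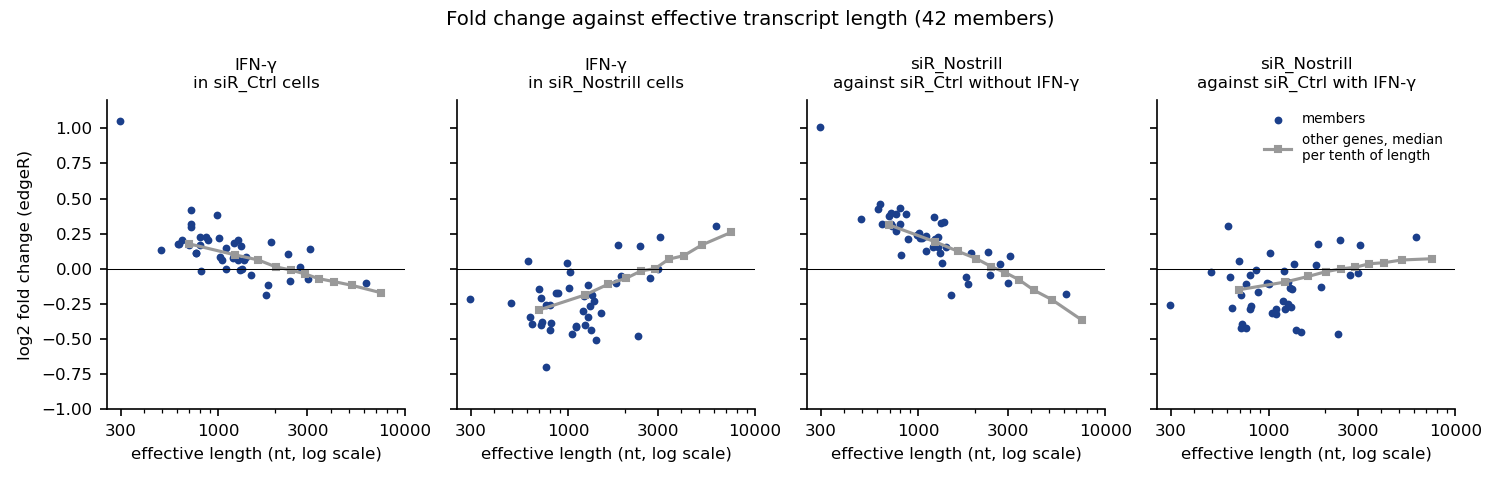
Log2 fold change by edgeR (vertical axis) against effective transcript length (horizontal log axis, nt) for 42 members, without Psme2b and Psmb11, in 4 comparisons. Points are members, and the grey line joins the medians of the other genes in 10 bins of length. The line falls with length for IFN-γ in siR_Ctrl cells and for siR_Nostrill without IFN-γ, where Psmg4, at 298 nt, stands above it, and rises with length in the other panels.

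With the length trend removed, the members' medians moved to 0.014 and -0.028 for IFN-γ in siR_Ctrl and siR_Nostrill cells, to 0.030 and -0.055 for siR_Nostrill without and with IFN-γ, and to -0.060 for the interaction. The catalytic subunits were again not called in this fit. With IFN-γ in siR_Ctrl cells the log2 fold change was 0.026 for Psmb5 (95% interval -0.11 to 0.16), 0.014 for Psmb6 (-0.17 to 0.20) and 0.023 for Psmb7 (-0.11 to 0.16). In siR_Nostrill cells the values were -0.12 (-0.25 to 0.017), -0.18 (-0.37 to 0.0044) and 0.12 (-0.014 to 0.26), with edgeR adjusted p values of 0.205, 0.158 and 0.195. On this scale the intervals in siR_Ctrl cells lay within 0.20 of 0. Other settings called 2 of the 3. With only the groups compared, Psmb5 was called as lower with IFN-γ in siR_Nostrill cells (-0.40, SE 0.12, edgeR adjusted p = 0.0496), a setting that called 17.0% of all genes. With the ratio of TPM over FPKM as a covariate, Psmb7 was called as higher in siR_Nostrill than in siR_Ctrl cells with IFN-γ (0.23, SE 0.060, adjusted p = 0.00953), where 22.1% of all genes were called, and with the length trend removed that call was made in 1 of 12 fits without a library.

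Members called by this fit are named below because of their adjusted p in it, and so were chosen after their values were seen. For IFN-γ in siR_Ctrl cells 4 of 43 were called, all higher, against 11.1% of all genes. They were Psme2b, Psmg4 (0.78, SE 0.12, edgeR adjusted p = 0.00030), Psma5 (0.26, SE 0.052, adjusted p = 0.0041) and Psmb4 (0.25, SE 0.072, adjusted p = 0.035). On the deposited counts Psmb4 had 0.42 (adjusted p = 0.488). The calls of Psmg4 and Psma5 held in 12 of 12 fits without a library, that of Psmb4 in 7, and without siR_Ctrl replicate 3 the count was 2. These 12 fits called 8.49% to 10.7% of all genes. In the fit to all libraries the share of members called was no higher than the background.

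For IFN-γ in siR_Nostrill cells 9 of 43 were called, 3 higher and 6 lower, near the background of 18.9% of all genes. Higher were Psme2b, Psma5 (0.26, SE 0.052, edgeR adjusted p = 0.0027) and Psmb2 (0.35, SE 0.082, adjusted p = 0.0096), a beta subunit without a cutting site. Lower were the ATPases Psmc2 (-0.22) and Psmc3 (-0.36), the lid subunits Psmd6 (-0.21) and Psmd13 (-0.27), Psmd9 (-0.44) and Psmc3ip (-0.45), with edgeR adjusted p values from 0.0053 to 0.041. Calls of Psma5, Psmc3 and Psmc3ip held in 12 of 12 fits without a library and those of Psmd13 in 5. The count was 3 without siR_Nostrill replicate 2 and 4 without siR_Nostrill + IFN-γ replicate 1. The share of all genes called also varied over these 12 fits, from 10.7% to 21.7%. Removing the trend moved these values. On the deposited counts Psma5 had 0.041 (adjusted p = 0.899) and Psmb2 0.055 (adjusted p = 0.881), so their calls rest on the correction. Psmc2 had -0.40, Psmc3 -0.51, Psmd6 -0.42 and Psmd13 -0.44 on those counts. These genes were not called there either in the edgeR fit to all 12 libraries, but were called as lower with only the groups compared.

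For siR_Nostrill without IFN-γ 2 of 43 were called, near the background of 3.39% of all genes. They were Psmg4, higher (0.59, SE 0.12, edgeR adjusted p = 0.013), and Psmd12, lower (-0.33, SE 0.062, adjusted p = 0.010). On the deposited counts they had 1.01 and -0.19. Without siR_Nostrill replicate 2 neither was called, and without siR_Ctrl replicate 2 Psmg4 was not. Over the 12 fits without a library 1.22% to 4.83% of all genes were called.

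For siR_Nostrill with IFN-γ 6 of 43 were called, near the background of 12.9% of all genes. Psmb2 (0.45, SE 0.083, edgeR adjusted p = 0.0053) and Psma1 (0.22, SE 0.068, adjusted p = 0.044) were higher. Psmd12 (-0.39, SE 0.062, adjusted p = 0.0023), Psmc3 (-0.36), Psmd9 (-0.46) and Psmb4 (-0.27) were lower, the last 3 with adjusted p values of 0.011, 0.033 and 0.025. On the deposited counts Psma1 had 0.11, Psmb2 0.31 and Psmb4 -0.42. Psmb2 and Psmd12 kept their call in 12 of 12 fits without a library, and Psma1 in 3. The count was 3 without siR_Ctrl + IFN-γ replicate 2, or without siR_Nostrill + IFN-γ replicate 1 or 2. Of all genes, 5.19% to 15.1% were called over these 12 fits. Psmd12 was the only member called as lower in siR_Nostrill cells both with and without IFN-γ in this fit.

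The catalytic subunits and their IFN-γ counterparts were then set side by side. Psmb8 had 8.9, 12.06 and 14.5 FPKM in siR_Ctrl and 93.99, 109.56 and 72.66 FPKM in siR_Ctrl + IFN-γ cells, and 13.49, 16.45 and 13.55 against 64.44, 68.53 and 80.25 FPKM in siR_Nostrill cells. Psmb9 had 1.96, 2.98 and 3.26 against 91.06, 127.97 and 95.87 FPKM, and 3.94, 4.48 and 2.64 against 98.74, 102.4 and 117.88 FPKM. Psmb10 had 26.22, 41.09 and 48.26 against 228.43, 313.76 and 183.04 FPKM, and 56.8, 60.23 and 43.16 against 209.62, 202.96 and 231.1 FPKM. All 3 immunoproteasome genes were higher in each library with IFN-γ than in any without.

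These genes were called by edgeR under both siRNAs. Log2 fold changes with IFN-γ in siR_Ctrl and siR_Nostrill cells were 3.04 and 2.27 for Psmb8, 5.32 and 4.86 for Psmb9 and 2.73 and 1.98 for Psmb10. The activator genes Psme1 and Psme2 had log2 fold changes of 1.196 and 1.46 in siR_Ctrl cells, where they were called, and of 0.52 and 0.78 in siR_Nostrill cells, where they were not (edgeR adjusted p = 0.169 and 0.093). The interaction was not called for any of the 5, and with the length trend removed all 5 were called for IFN-γ under both siRNAs. Between the siRNAs with IFN-γ in both arms, edgeR called none of the 5 (Psmb8 -0.44, adjusted p = 0.378). With the length trend removed Psmb8 was called as lower in siR_Nostrill cells (-0.31, SE 0.091, edgeR adjusted p = 0.038), and this call was lost without siR_Ctrl + IFN-γ replicate 1 or 2 or siR_Nostrill + IFN-γ replicate 1 or 2.

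The share of the immunoproteasome gene in the summed FPKM of its pair shows how far the mRNA pool moved, though not which protein was built in. For Psmb8 with Psmb5 it was 3.27% ± 0.422 in siR_Ctrl, 19.3% ± 0.609 in siR_Ctrl + IFN-γ, 3.27% ± 0.362 in siR_Nostrill and 17.55% ± 1.38 when siR_Nostrill cells had received IFN-γ (± SD, n = 3). For Psmb9 with Psmb6 it was 0.939% ± 0.0962, 25.5% ± 2.78, 1.02% ± 0.134 and 28.4% ± 0.130. For Psmb10 with Psmb7 it was 9.13% ± 0.972, 36.9% ± 3.69, 10.01% ± 0.986 and 31.9% ± 1.21. In all libraries with IFN-γ the constitutive gene thus still gave most of the mRNA of its pair.

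With IFN-γ the share was higher by 16.0, 24.6 and 27.7 percentage points in siR_Ctrl cells and by 14.3, 27.4 and 21.9 points in siR_Nostrill cells for Psmb8, Psmb9 and Psmb10. The groups did not overlap in any of these 6 comparisons. Each had a two-sided exact permutation p of 0.1, the smallest that 3 libraries against 3 allow, and 0.171 after Benjamini-Hochberg adjustment over the 12 comparisons of shares.

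Between the siRNAs with IFN-γ the share of Psmb10 differed by -4.98 points in siR_Nostrill cells, without overlap (exact permutation p = 0.1), that of Psmb8 by -1.72 points (p = 0.2) and that of Psmb9 by 2.88 points (p = 0.4). Without IFN-γ the shares differed by at most 0.878 points, with overlap in all pairs. The sum of each pair without and with IFN-γ in siR_Ctrl cells was 364.5 ± 89.1 and 479.2 ± 106.0 FPKM for Psmb5 and Psmb8, 293.5 ± 80.0 and 415.5 ± 99.2 FPKM for Psmb6 and Psmb9, and 418.4 ± 96.9 and 648.5 ± 113.0 FPKM for Psmb7 and Psmb10. In siR_Nostrill cells these were 445.0 ± 48.8 and 404.5 ± 22.1, 358.2 ± 49.5 and 374.3 ± 34.6, and 531.6 ± 56.0 and 672.5 ± 21.2 FPKM. The groups overlapped for the sums with Psmb5 and with Psmb6 under both siRNAs, and not for the sums with Psmb7.

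**Figure D5:**
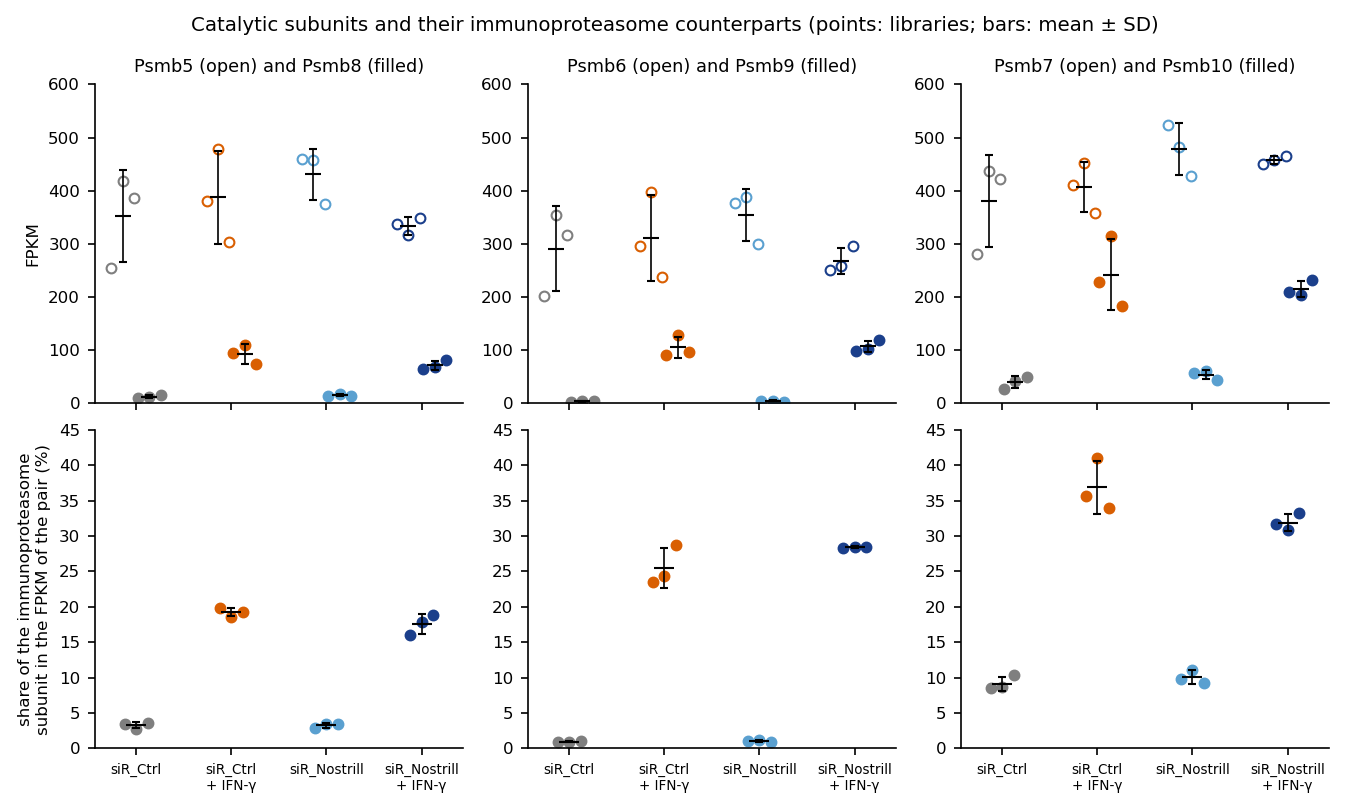
Upper row, FPKM of Psmb5, Psmb6 and Psmb7 (open) and of Psmb8, Psmb9 and Psmb10 (filled) in each library, and lower row, the share of the immunoproteasome gene in the FPKM of the pair (%). Points are libraries, and bars are mean ± SD of 3 libraries. Shares are higher with IFN-γ under both siRNAs, from 9.13% to 36.9% for Psmb10 in siR_Ctrl cells, while Psmb5, Psmb6 and Psmb7 lie between 201.88 and 524.27 FPKM in all libraries.

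Genes that serve the proteasome under other names were counted from a list of 26, of which 25 were found and tested, and Paaf1 was not analysed here. The list holds the assembly factor Pomp, the ubiquitin receptor Adrm1, the deubiquitinase Usp14, the transcription factors Nfe2l1 and Nfe2l2, ubiquitin genes and shuttle factors. By edgeR 0, 1, 0 and 0 were called as higher and 0, 0, 1 and 0 as lower in the 4 comparisons, in the order above, and 0 in the interaction, against 5.45%, 6.78%, 0.218%, 0.429% and 0.0% of all genes called in either direction. Unadjusted p values under 0.05 numbered 4, 6, 5, 3 and 3 of 25, against 14.6%, 21.9%, 13.8%, 14.5% and 10.7% of all genes, and medians were 0.040, 0.023, 0.036, -0.065 and -0.041.

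Usp14, which trims ubiquitin chains at the proteasome, rose with IFN-γ in siR_Nostrill cells, from 40.81, 31.18 and 40.03 to 54.18, 51.77 and 52.53 FPKM (0.47, SE 0.094, edgeR adjusted p = 0.0095). This call was lost only without siR_Nostrill replicate 2. Ubqln2, a shuttle factor, was lower in siR_Nostrill than in siR_Ctrl cells, at 15.08, 13.12 and 16.52 against 32.67, 21.77 and 25.86 FPKM (-0.81, SE 0.14, adjusted p = 0.047). The groups did not overlap, and DESeq2 called it too (adjusted p = 4.8e-05). The edgeR call held in 1 of 12 fits without a library, and in 12 of 12 with the length trend removed (-0.76, adjusted p = 0.0016).

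Pomp, which guides the closing of the beta ring and is needed for immunoproteasome assembly, had 191.08, 346.57 and 295.93 FPKM in siR_Ctrl and 351.35, 440.07 and 265.2 FPKM in siR_Ctrl + IFN-γ cells (0.41, edgeR adjusted p = 0.561). Nfe2l1, which restores proteasome genes when the proteasome fails, had 66.81, 56.95 and 62.12 FPKM in siR_Ctrl and 79.39, 74.49 and 83.98 FPKM in siR_Nostrill cells, without overlap (0.32, adjusted p = 0.167). DESeq2 called it as higher in siR_Nostrill cells without (0.32, adjusted p = 0.00978) and with IFN-γ (0.30, adjusted p = 0.00853). Over the 12 libraries Nfe2l2 ranged from 29.83 to 48.03 FPKM and Adrm1 from 108.38 to 157.69 FPKM. With the length trend removed, 2, 6, 3, 4 and 0 of the 25 were called, against 11.1%, 18.9%, 3.39%, 12.9% and 0.0% of all genes. Among them Nfe2l1 was higher in siR_Nostrill cells both without (0.43, edgeR adjusted p = 0.00098) and with IFN-γ (0.26, adjusted p = 0.0074), and with IFN-γ in siR_Ctrl cells (0.26, adjusted p = 0.0037). Nfe2l2 was lower in siR_Nostrill than in siR_Ctrl cells without IFN-γ (-0.36, adjusted p = 0.034) and higher with IFN-γ in siR_Nostrill cells (0.30, adjusted p = 0.026), calls that held in 6 and 7 of 12 fits without a library. Pomp was higher with IFN-γ in siR_Ctrl cells (0.21, adjusted p = 0.043), a call that held in 2 of 12.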

How the data were processed

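The authors deposited, for each of the 12 libraries, an estimated count of reads per gene, which is not normalized. The FPKM deposited by the authors is scaled for mapped reads and transcript length, and the deposited TPM to a fixed total per library. Per the study's methods, oligo(dT)-enriched mRNA was sequenced on DNBSEQ, SOAPnuke filtered the reads, and HISAT2 and Bowtie2 aligned them to GRCm38.p6. As to the tool that counted reads, it was not given in the sources used here. Estimated counts were whole numbers for 90.6% to 91.6% of genes and were rounded.

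Counts of all 12 libraries were fitted in a common edgeR 4.0.16 model (quasi-likelihood test, TMM, default filter on low counts, 4 group means, Benjamini-Hochberg adjustment over 11900 genes, threshold 0.05), run under R 4.3.3. This gave 5 comparisons, namely IFN-γ under each siRNA, siR_Nostrill against siR_Ctrl without and with IFN-γ, and their interaction. Shares of catalytic pairs were compared with two-sided exact permutation tests. Log2 CPM used a prior count of 2. Alternatives were DESeq2 1.42.0 (Wald test and size factors), other filters, a block for the replicate number, fits to only the groups compared, limma 3.58.1 on log2(FPKM + 1) or log2(FPKM + 0.1), the ratio of TPM to FPKM as covariate, removal of the length trend (lowess, span 0.3, per library, as offsets), and each library left out. Leaving out libraries in the fit with the length trend removed was added after seeing the data. The edgeR fits with and without removal of the length trend were also run on simulated counts. These had a fixed dispersion, and any length trends were drawn without regard to condition. They therefore do not test the calls made here.

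Named were Psmb5, Psmb6 and Psmb7, members called by edgeR or otherwise the 3 with the lowest p in each comparison, the highest and lowest member of each role, members below the filter, the excluded genes, and genes of the list of other proteasome genes that were called, with Nfe2l1, Nfe2l2, Adrm1 and Pomp. Members and lists were chosen with earlier results of these data known. The methods describe biological triplicates, but the labels do not say that cultures were separate, and p-values measure only the spread between these libraries. Chi-square per degree of freedom between replicates of a group was 6.72 to 101.34, above sampling noise. Separate libraries of a single culture could exceed that noise too, so this does not show that cultures were separate. Each library was counted as 1 replicate. Gene coordinates are those of RefSeq on GRCm38.p6. A further promoter motif is not reported here.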

Additional observations from a re-analysis of the deposited data

How the results depend on the processing

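The number of members called depended on the setting, and where no cause is named it was not tested. For IFN-γ in siR_Ctrl cells 1 member was called, and this became 2 with DESeq2 (against 6.47% of all genes in that fit) and with limma on log2(FPKM + 0.1) (4.7%), 0 with a mean of at least 5 CPM (5.15%), which leaves out Psme2b, and 0 with only the groups compared (2.91%), 4 with the length trend removed (11.1%) and 5 with each library's TPM to FPKM ratio as covariate (16.9%). In siR_Nostrill cells the 1 call became 2 with DESeq2 (10.5%) and with limma on log2(FPKM + 1) (7.96%) or log2(FPKM + 0.1) (7.9%), 0 with limma on all genes (5.78%) and with a mean of at least 5 CPM (7.14%). It became 15 with only the groups compared (17.0%), Psmb5 among them, all lower except Psme4 and Psme2b. With the length trend removed it was 9 (18.9%), and with the covariate 10 (20.2%). For siR_Nostrill without IFN-γ 0 calls became 2 with DESeq2 (2.35%), 2 with the trend removed (3.39%) and 3 with the covariate (4.66%). With IFN-γ 0 became 1 with DESeq2 (5.65%) and with limma on log2(FPKM + 1) (1.22%), 6 with the trend removed (12.9%) and 12 with the covariate (22.1%), Psmb7 among them. The interaction gave 0 calls in each setting run and has no fit with only the groups compared.

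Same-numbered replicates correlated from -0.495 to 0.725 in their deviations from the group means, so the numbers were not taken as pairs. With the replicate block, 0 members were called for IFN-γ in siR_Ctrl (5.41% of all genes) and 2 in siR_Nostrill cells (7.92%). With the length trend removed and the replicate block these were 5 (12.1%) and 11 (22.4%), and 2 (4.67%) and 9 (15.9%) for siR_Nostrill without and with IFN-γ.

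Removing length moved medians. That of siR_Nostrill without IFN-γ was -0.0227 with the covariate. That of the interaction was -0.0603 with the trend removed, -0.000452 with the covariate and -0.0553 with the trend removed and the block. No log2 fold change that had been called changed sign among the following. For IFN-γ in siR_Ctrl cells the covariate gave -0.0164 for Psmb5, -0.0801 for Psmb6 and -0.000914 for Psmb7. In siR_Nostrill cells Psmb7 was 0.121 with the trend removed, 0.149 with the covariate and 0.121 with trend and block, and Pomp 0.12, 0.2 and 0.12, of which the covariate value passed the threshold (edgeR adjusted p = 0.0208). For siR_Nostrill without IFN-γ the covariate gave -0.0244 for Psmb5 and -0.075 for Psmb6. In the interaction Psmb6 was 0.028 with the covariate, and Psmb7 0.0977, 0.15 and 0.0991 with trend, covariate, and trend and block.

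Leaving out each library in turn, members called ranged from 0 to 2 for IFN-γ in siR_Ctrl and from 0 to 3 in siR_Nostrill cells, against 4.07% to 4.9% and 4.08% to 9.47% of all genes. With the trend removed the ranges were 2 to 5, 3 to 11, 0 to 2 and 3 to 9 in the 4 comparisons, against 8.49% to 10.7%, 10.7% to 21.7%, 1.22% to 4.83% and 5.19% to 15.1% of all genes. Fold changes with IFN-γ in siR_Ctrl cells ranged from -0.0462 to 0.392 for Psmb5, from -0.119 to 0.384 for Psmb6 and from -0.0486 to 0.339 for Psmb7. For siR_Nostrill without IFN-γ the ranges were 0.104 to 0.512, 0.0862 to 0.534 and 0.157 to 0.547, and with IFN-γ -0.458 to -0.0244, -0.48 to 0.00447 and -0.0739 to 0.223, in the same order. For IFN-γ in siR_Nostrill cells they were -0.523 to -0.316, -0.582 to -0.356 and -0.269 to -0.0496. The correlation with the length index stayed between -0.986 and -0.995.

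From counts in place of FPKM, which are not scaled for length, the difference in share with IFN-γ in siR_Ctrl and siR_Nostrill cells was 22.1 and 19.8 points for Psmb8, 19.8 and 22.4 for Psmb9, and 33.3 and 27.7 for Psmb10. With 3 libraries a group, the edgeR intervals of Psmb5, Psmb6 and Psmb7 given in the report limit what can be said of small differences.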
